A study of Rattus norvegicus with 9 samples.

Results

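A1bg, Tmem255a and Anxa10 were examined as 3 genes of the 20645 in the expression table of INS-1E cells, a rat insulinoma line that makes and secretes insulin and serves as a model of the pancreatic beta cell. They were chosen by their own values in these libraries, for being higher when palmitate-treated cells also received cyanidin-3-O-glucoside (C3G), an anthocyanin pigment of dark berries, and the choice carried no numerical threshold. All 3 had a mean of at least 1 FPKM (sequenced fragments scaled to transcript length and library depth) and were among the 12958 genes entered into tests. The 3 groups of 3 libraries each were sequenced after 24 h of treatment. The BSA group received only fatty-acid-free albumin, the carrier of the fatty acid, the PA group received palmitic acid, and the PA + C3G group received palmitic acid with 50 µM C3G. The palmitic acid concentration was 0.5 mM, as the study's methods give it for this cell line. No group received C3G without palmitic acid, and the line is a tumour-derived one, so the values are those of a single transformed cell line. The comparisons address how palmitate, a saturated fatty acid that is toxic to beta cells on long exposure, altered the expression of these genes and where their levels lay once C3G was added.

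The 3 genes encode unrelated proteins. A1bg encodes alpha-1-B glycoprotein, a secreted member of the immunoglobulin superfamily that is made in the liver, circulates in plasma and binds the cysteine-rich secretory protein CRISP3. Tmem255a encodes a multi-pass membrane protein of which little is known. Anxa10 encodes annexin A10, of the family that binds membrane phospholipids in the presence of calcium, and is best known from the gastric epithelium. The annotation columns of the deposited table place A1bg in the extracellular region, Tmem255a in the membrane and Anxa10 among calcium and phospholipid binders, and assign none of them to a KEGG pathway.

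In the coordinates of the deposited table, whose genome build is not given in the sources used here, A1bg (ENSRNOG00000004692) is a compact gene on the minus strand of chromosome 7 from 102294797 to 102298522, a span of 3.726 kb with 2 transcripts. Tmem255a (ENSRNOG00000028085) lies on the minus strand of chromosome X from 124328735 to 124465110 and spans 136.376 kb with 2 transcripts. Anxa10 (ENSRNOG00000014339) lies on the plus strand of chromosome 16 from 29674793 to 29741465 and spans 66.673 kb with 1 transcript. The 3 genes therefore share neither a chromosome nor a gene structure.

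The sequence upstream of each gene is shown because the 3 genes were chosen for the same direction and their promoters can be compared letter by letter. The RefSeq promoter table for the GRCr8 assembly matched 3 of 3 genes, and the 250 bases before the annotated start are printed from 5′ to 3′ on the strand of the gene. Capitals mark every match, on either strand, to 9 short motifs named in the next paragraph. The windows lie at chr7:94387497-94387746 on the minus strand for A1bg, at chrX:121900650-121900899 on the minus strand for Tmem255a and at chr16:32504775-32505024 on the plus strand for Anxa10.
A1bg: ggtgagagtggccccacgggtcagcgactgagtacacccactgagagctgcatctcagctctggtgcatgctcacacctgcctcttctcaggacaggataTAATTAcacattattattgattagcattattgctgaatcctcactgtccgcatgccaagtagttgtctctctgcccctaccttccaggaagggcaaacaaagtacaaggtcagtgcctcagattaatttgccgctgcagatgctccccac
Tmem255a: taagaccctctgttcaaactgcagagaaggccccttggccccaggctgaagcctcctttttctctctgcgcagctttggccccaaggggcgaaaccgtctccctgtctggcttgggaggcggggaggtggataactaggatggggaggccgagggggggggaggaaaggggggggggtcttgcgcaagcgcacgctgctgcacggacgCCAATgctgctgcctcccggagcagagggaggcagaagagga
Anxa10: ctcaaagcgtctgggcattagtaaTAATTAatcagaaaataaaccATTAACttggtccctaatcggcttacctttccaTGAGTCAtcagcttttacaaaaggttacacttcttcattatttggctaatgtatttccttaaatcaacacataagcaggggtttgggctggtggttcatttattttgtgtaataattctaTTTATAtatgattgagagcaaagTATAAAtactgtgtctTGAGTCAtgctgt

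The 3 windows differed in base composition. The Anxa10 window held 34.0% G and C with 2 CpG dinucleotides, at the 4.64 percentile of G and C content among 33469 RefSeq promoter windows of the same length. The A1bg window held 50.8% with 4 CpG dinucleotides, near the median of 51.2%, and the Tmem255a window held 64.4% with 11 CpG dinucleotides, at the 83.5 percentile. Of the motifs searched on both strands, the Anxa10 window held the TATA box TATAAA at 29 bases before the start and, on the opposite strand, at 52 bases. It also held the AP-1 site TGANTCA at 172 and at 13 bases, the HNF1 motif GTTAAT on the opposite strand at 205 bases and the homeodomain core TAATTA at 226 bases. The A1bg window held TAATTA at 150 bases, and the Tmem255a window held the CCAAT box CCAAT at 42 bases. These motifs occurred in 12.9% of all windows for the TATA box, 6.34% for the AP-1 site, 6.45% for the HNF1 motif, 4.86% for the homeodomain core and 34.0% for the CCAAT box. The other motifs searched were found in none of the 3 windows: the GC box GGGCGG (30.5% of all windows), the E-box CACGTG (5.59%), the CRE core TGACG (18.2%) and the C/EBP-ATF element TGCATCA (2.50%). TAATTA was the only motif present in more than 1 of the 3 windows, no matches overlapped, and a match of letters is a description of sequence alone. RefSeq lists a further A1bg transcript with another start, whose promoter is not shown.

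The libraries held 45559993 to 66730721 estimated counts each, with the lowest total in PA + C3G replicate 3. Correlations of log2(FPKM + 1) across genes were 0.981 to 0.985 between libraries of a group and 0.943 to 0.977 between libraries of different groups, and 0 pairs of libraries were identical. The study's methods describe its experiments in general as done in biological triplicate, while the labels do not state that these libraries came from separate cultures, so p-values measure the spread between these libraries. Of 14 beta cell markers, 13 were listed and all 13 had a mean of at least 1 FPKM. Their summed level was 49553 to 50256 FPKM with BSA, 22745 to 23251 FPKM with PA and 47374 to 52934 FPKM with PA + C3G. This sum, to which Ins1 contributed most, was lowest with PA, as were the 3 genes, and its part in their levels was not tested. Single markers did not all follow the sum. By edgeR's test 9 of the 13 were lower in PA against BSA, 1 was higher (Ucn3, log2 fold change 1.36) and 3 were not called. Those not called were Nkx6-1 (0.08), Neurod1 (−0.05) and Pcsk2 (0.02). Over all tested genes 25.2% were called lower and 25.8% higher. In PA + C3G against PA 11 of 13 were higher and 0 lower, beside 11.1% and 10.2% over all tested genes. Since these are bulk samples, fewer cells of a type and less RNA per cell cannot be told apart.

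Anxa10 was by far the most abundant of the 3 genes and one of the most abundant transcripts of the cell line, as length-normalised FPKM shows. Its level was 1578, 1702 and 1585 FPKM in BSA replicates 1, 2 and 3. In the PA group it was 483, 526 and 495 FPKM, and in the PA + C3G group it was 796, 849 and 844 FPKM. All 3 groups stood apart without overlap, with the PA + C3G libraries above every PA library and below every BSA library. For each gene the place of PA + C3G above PA was the reason for the choice. How many of all genes had groups that stood apart was not counted. The group means were 1622 ± 69.7, 501 ± 22.1 and 830 ± 29.4 FPKM (SD, n = 3), which ranked Anxa10 20th, 94th and 36th among the 20645 genes in the BSA, PA and PA + C3G groups. The PA mean was 30.9% and the PA + C3G mean 51.2% of the BSA mean.

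A1bg, the secreted plasma glycoprotein, was expressed at 70.7, 62.9 and 66.1 FPKM in the BSA libraries. It was listed at 15.0, 16.3 and 14.1 FPKM in the PA libraries and at 34.4, 32.6 and 33.2 FPKM in the PA + C3G libraries. As for Anxa10, the 3 groups did not overlap and the PA + C3G group was intermediate. The means were 66.5 ± 3.92, 15.1 ± 1.13 and 33.4 ± 0.930 FPKM (SD, n = 3), so the PA mean was 22.8% and the PA + C3G mean 50.2% of the BSA mean. By the order of mean FPKM, A1bg stood at place 1211 with BSA, 5781 with PA and 2685 with PA + C3G.

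Tmem255a, the multi-pass membrane protein gene, followed another pattern. Its level was 65.6, 58.1 and 58.2 FPKM with BSA, 32.7, 33.0 and 31.2 FPKM with PA, and 67.0, 63.6 and 67.4 FPKM with PA + C3G. The PA libraries lay below all others, whereas the BSA and PA + C3G libraries overlapped, so the ranges of these neighbours in the order of levels were not separate. The means were 60.6 ± 4.33, 32.3 ± 0.943 and 66.0 ± 2.10 FPKM (SD, n = 3), and relative to the BSA mean the PA mean was 53.3% and the PA + C3G mean 108.9%.

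**Figure D1:**
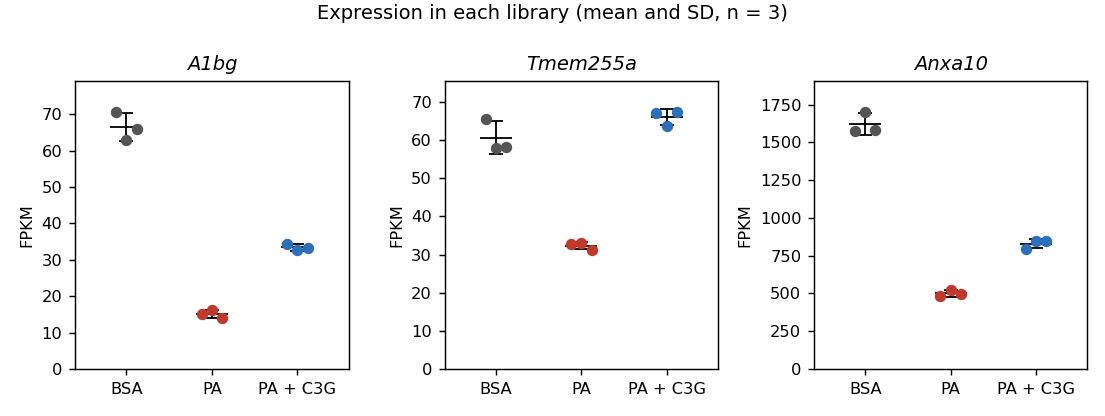
Expression of A1bg, Tmem255a and Anxa10 in FPKM (vertical axes, starting at 0) in the BSA, PA and PA + C3G groups; each point is 1 library and the bars give mean and SD (n = 3). The PA + C3G libraries lie between the other groups for A1bg and Anxa10 and overlap the BSA libraries for Tmem255a.

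The estimated counts behind these levels were large. They ranged from 1877 to 11736 for A1bg, from 2941 to 7948 for Tmem255a and from 32435 to 128976 for Anxa10, with the lowest value of each gene in PA replicate 3. The coefficient of variation within a group was 2.78% to 7.44% for A1bg, 2.92% to 7.15% for Tmem255a and 3.55% to 4.42% for Anxa10. This is small beside the distances between the groups other than BSA and PA + C3G for Tmem255a. The distance between PA + C3G and PA was the reason for choosing the genes, so its size is no separate support.

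Whether palmitate, with or without C3G, lowered the genes was tested by setting the mean of the PA and PA + C3G groups against the BSA group. In this balanced design that contrast is orthogonal to the difference between PA + C3G and PA on which the genes were chosen. It still uses the same PA and PA + C3G libraries, and the genes were chosen with earlier results of these data known. The p-values therefore do not come from libraries independent of the choice. By edgeR's quasi-likelihood test with Benjamini-Hochberg adjustment over the 12958 genes, 3 of 3 genes were lower in the palmitate groups, where 24.4% of all tested genes were called lower. A1bg fell by 1.52 on the log2 scale (SE 0.05, adjusted p = 3.23e-08 from edgeR), a level 2.87-fold lower than with BSA. Anxa10 fell by 1.29 (SE 0.04, adjusted p = 1.95e-08 from edgeR), or 2.44-fold lower. For both genes 6 of 6 palmitate libraries lay below every BSA library, and how many of all tested genes did so was not counted. Tmem255a fell by 0.35 (SE 0.05, adjusted p = 0.000194 from edgeR), or 1.27-fold lower, and here the call averages PA libraries that were all below the BSA range with PA + C3G libraries that were not. Ordered from the lowest log2 fold change, A1bg took place 233, Anxa10 place 315 and Tmem255a place 1986 of the 12958 genes.

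**Figure D2:**
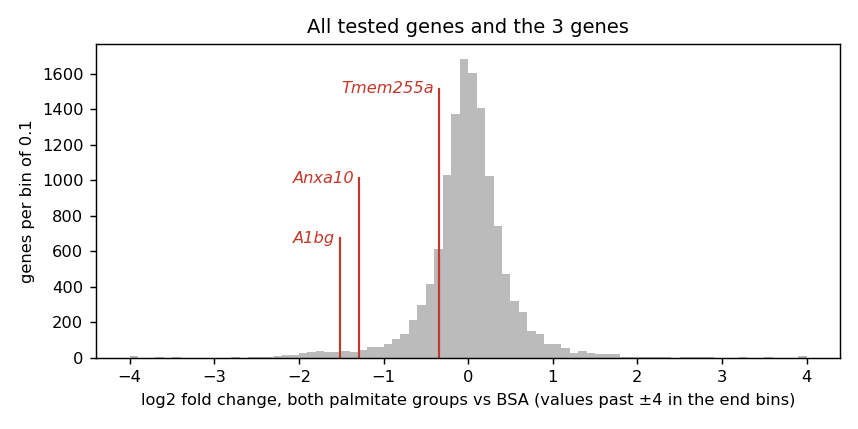
Distribution of the edgeR log2 fold change of both palmitate groups against BSA (horizontal axis) over 12958 tested genes (vertical axis, genes per bin), with vertical lines at the 3 genes. A1bg at −1.52 and Anxa10 at −1.29 lie in the lower tail, and Tmem255a at −0.35 lies at the edge of the central peak.

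The separate contrasts share libraries with the choice of the genes and are given as fold changes with no test. Against BSA, PA alone gave log2 fold changes of −2.11 for A1bg (SE 0.07), −1.67 for Anxa10 (SE 0.05) and −0.88 for Tmem255a (SE 0.06). PA + C3G against PA, the contrast that chose the genes, gave 1.18 for A1bg (SE 0.06), 1.07 for Tmem255a (SE 0.06) and 0.76 for Anxa10 (SE 0.05), folds of 2.26, 2.09 and 1.70. Of all tested genes, 11.1% were called higher in that contrast, and by size of increase the 3 genes took places 86, 109 and 250. PA + C3G against BSA gave −0.93 for A1bg (SE 0.06), −0.91 for Anxa10 (SE 0.05) and 0.18 for Tmem255a (SE 0.05). The order of the genes by the size of the palmitate difference was thus A1bg, Anxa10, Tmem255a, and by the size of the C3G difference A1bg, Tmem255a, Anxa10. When each library was rescaled to the same FPKM sum, the median of all tested genes in PA + C3G against PA was −0.09 and the share of called genes that were higher was 23.5% against 52.2% in the main fit, and the 3 genes had log2 fold changes of 1.09, 0.98 and 0.68 in that scaling.

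**Figure D3:**
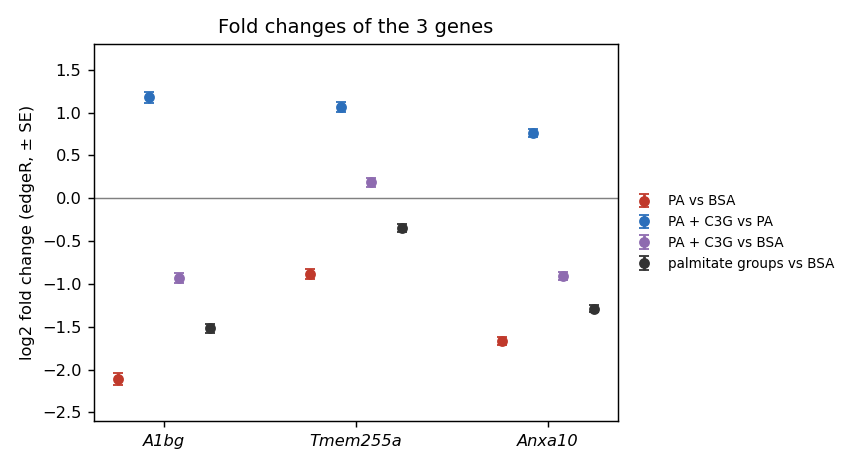
Log2 fold changes from edgeR with their SE (vertical axis) for A1bg, Tmem255a and Anxa10 in 4 contrasts (colours), with a line at 0. PA + C3G against BSA is near −0.9 for A1bg (−0.93) and Anxa10 (−0.91) and 0.18 for Tmem255a.

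Expressed as a share of the distance between the PA and BSA means, the PA + C3G libraries had covered 35.6 ± 1.81% for A1bg, 29.3 ± 2.63% for Anxa10 and 119 ± 7.43% for Tmem255a (SD over 3 PA + C3G libraries, with the other means held fixed). A value of 0 would equal the PA mean and 100 the BSA mean. These shares carry no test, because the position of the PA + C3G group above the PA group was the reason for choosing the genes.

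Ratios within a library, which do not depend on scaling between libraries, showed how the 3 genes moved relative to each other. The ratio of A1bg to Tmem255a FPKM was 1.10 ± 0.032 with BSA, 0.468 ± 0.0234 with PA and 0.506 ± 0.0115 with PA + C3G (SD, n = 3), so A1bg was the higher of the pair in the BSA libraries alone. The ratio of Anxa10 to A1bg was 24.5 ± 2.41, 33.2 ± 1.71 and 24.9 ± 1.54 in the same order of groups. The ratio of Anxa10 to Tmem255a was 26.9 ± 2.66 with BSA, 15.5 ± 0.656 with PA and 12.6 ± 0.742 with PA + C3G.

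Across the 9 libraries, log2(FPKM + 1) of A1bg and Anxa10 had a Pearson r of 0.988, A1bg and Tmem255a one of 0.824, and Tmem255a and Anxa10 one of 0.744. These and the following correlations rest on 9 libraries that fall into 3 treatment groups and share library, depth and RNA preparation, and they are given as descriptions. Ranked by r among the tested genes, Anxa10 was at place 22 for A1bg, and A1bg at place 56 for Anxa10. Tmem255a was at place 2002 for A1bg and 2920 for Anxa10. For Tmem255a, A1bg was at place 402 and Anxa10 at place 824. The 5 tested genes closest to A1bg were Necab3 (r = 0.999) and Scgn (0.994), which encode EF-hand calcium-binding proteins, Tshz1 (0.995), a zinc finger transcription factor, Fam13b (0.994), and Tff3 (0.994), a secreted trefoil peptide. Tff3 had means of 146 ± 15.6, 24.3 ± 3.80 and 69.0 ± 6.19 FPKM (SD, n = 3) with BSA, PA and PA + C3G, and Necab3 had 16.8 ± 0.546, 5.42 ± 0.421 and 9.98 ± 0.239 FPKM. Both lists of means had the order seen for A1bg, with PA lowest and PA + C3G in between.

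Among the genes closest to Anxa10 were Rai2 (r = 0.997), Maob (0.996), a mitochondrial amine oxidase, Carns1 (0.995), which makes carnosine, and Synpo2 (0.995), which encodes an actin-associated protein. Rai2 had means of 60.1 ± 2.99, 15.4 ± 1.40 and 28.9 ± 2.80 FPKM (SD, n = 3), and Maob had 75.0 ± 5.79, 24.6 ± 1.99 and 37.6 ± 2.77 FPKM. Closest to Tmem255a were Trpv1 (r = 0.984), the capsaicin-gated cation channel, Abcc3 (0.983), an exporter of organic anions, and Ins1 (0.980), one of the rat insulin genes, followed by AABR07072266 (0.979) and LOC103689978 (0.979), the latter listed at 0 in all 3 PA libraries. Trpv1 had means of 28.4 ± 2.90, 16.1 ± 0.994 and 28.4 ± 1.84 FPKM and Ins1 had 26650 ± 1749, 13744 ± 684 and 32002 ± 3725 FPKM (SD, n = 3). In both, PA + C3G was at or above the BSA mean, as in Tmem255a.

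The other annexins were described to show whether the family moved as Anxa10 did. Of 11 further annexin genes, 10 were listed and 6 passed the filter on mean FPKM. In PA against BSA, 4 of these 6 were higher by edgeR's test and 0 were lower, where 25.8% of all tested genes were called higher and 25.2% lower. Anxa5, whose protein binds phosphatidylserine exposed on dying cells, was 33.5, 34.1 and 37.1 FPKM with BSA and 44.1, 46.4 and 48.9 FPKM with PA, without overlap. It rose by a log2 fold change of 0.44 (SE 0.06, adjusted p = 0.000147 from edgeR). Anxa2, which forms a complex with S100a10 at membranes, rose by 0.47 (SE 0.10, adjusted p = 0.00277 from edgeR), Anxa6 by 0.60 (SE 0.15, adjusted p = 0.00904) and Anxa7 by 0.27 (SE 0.05, adjusted p = 0.00235). Anxa4 (log2 fold change −0.11) and Anxa11 (0.05) did not pass the test. The median log2 fold change of the 6 genes was 0.35, against 0.003 over all tested genes, and lay on the other side of 0 from the −1.67 of Anxa10.

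In PA + C3G against PA, 0 of the 6 annexins passed edgeR's test in either direction, with 0 at an unadjusted p under 0.05, 0 called by DESeq2 or by limma, and 1 at an unadjusted p under 0.05 in each of these tools. In that contrast 11.1% of all tested genes were called higher and 10.2% lower. The median of the 6 genes was 0.02, with values from −0.12 for Anxa7 to 0.17 for Anxa4, beside 0.76 for Anxa10. Anxa1, Anxa8, Anxa9 and Anxa13 were listed below the filter. Among them Anxa8 had the order of levels seen for Anxa10, at 0.409 to 1.08 FPKM with BSA, 0 in every PA library and 0.0411 to 0.150 FPKM with PA + C3G. With no filter it was called lower in PA against BSA (adjusted p = 9.03e-05 from edgeR) and higher in PA + C3G against PA (adjusted p = 0.00444 from edgeR).

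**Figure D4:**
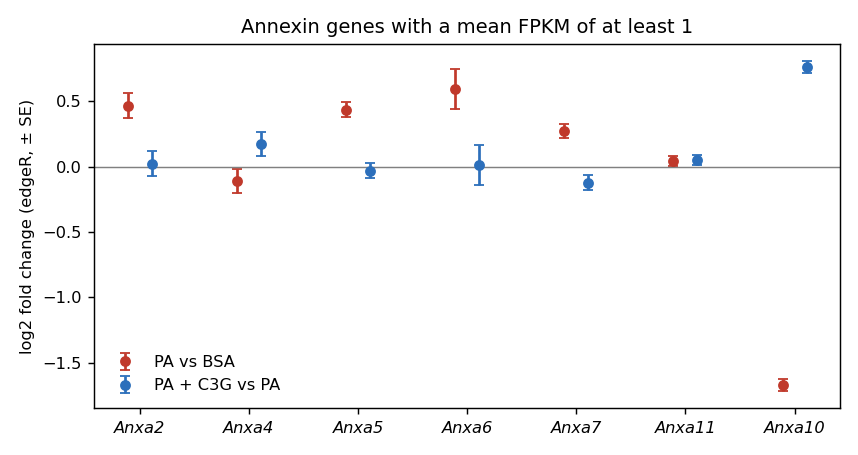
Log2 fold changes from edgeR with their SE (vertical axis) for 7 annexin genes with a mean of at least 1 FPKM, in PA against BSA (red) and PA + C3G against PA (blue). Anxa10 is the gene at −1.67 and 0.76, and the other 6 lie between −0.11 and 0.60 in the first contrast and between −0.12 and 0.17 in the second.

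S100 proteins and Ahnak, which bind annexins, were a list of 9 genes, of which 8 were listed and 4 passed the filter. In PA against BSA, 2 of 4 were lower and 0 higher, with a list median of −0.07, beside 25.2% lower and 25.8% higher over all tested genes. S100a4 was 9.62, 2.97 and 8.84 FPKM with BSA and 2.46, 2.38 and 2.78 FPKM with PA, a log2 fold change of −1.47 (SE 0.36, adjusted p = 0.00722 from edgeR), and BSA replicate 2 lay near the PA libraries. S100a10, the partner of Anxa2, had a log2 fold change of −0.45 (SE 0.16, adjusted p = 0.0377 from edgeR), a call lost without BSA replicate 1 or 3, PA replicate 2 or 3, or PA + C3G replicate 3. S100a4 was also the 1 gene of the list that was higher in PA + C3G against PA, at 5.72, 5.44 and 6.01 FPKM (log2 fold change 1.21, SE 0.36, adjusted p = 0.0406 from edgeR). That call was lost in 10 of 19 alternative analyses, among them with limma, with no filter, and without BSA replicate 3 or any single PA or PA + C3G library. The list median was 0.06, and 11.1% of all tested genes were called higher.

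Tmem255b, the paralog of Tmem255a, was expressed at a far lower level. It was 4.92, 3.44 and 3.75 FPKM with BSA, with 342, 198 and 249 estimated counts. With PA it was 0.0777, 0.302 and 0 FPKM (6, 21 and 0 estimated counts), and with PA + C3G it was 1.31, 0.582 and 0.769 FPKM (93, 39 and 37 estimated counts). The 3 groups did not overlap. By edgeR's test Tmem255b was lower in PA against BSA (log2 fold change −4.87, SE 0.77, adjusted p = 0.000525) and higher in PA + C3G against PA (2.77, SE 0.74, adjusted p = 0.0265), fold changes that depend on few counts in the PA group. The second call was lost in 4 of 18 alternatives: with only the compared groups in the fit and without PA replicate 1, PA + C3G replicate 1 or PA + C3G replicate 3. Unlike Tmem255a, its PA + C3G libraries remained below every BSA library, and its log2 fold change of PA + C3G against BSA was −2.10.

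Of 8 genes of the leukocyte receptor complex that carry immunoglobulin domains as A1bg does, 3 were listed (Gp6, Oscar and Pirb), all below the filter, so they were not tested. The CRISP proteins and their relatives, the family of the known A1bg-binding partner, were 10 genes, of which 6 were listed and 5 passed the filter. Crisp3 itself was below it. In PA against BSA, 2 of 5 were lower and 0 higher, with a median of −0.20, beside 25.2% lower and 25.8% higher over all tested genes. Crispld1, a secreted member of the family, was 8.58, 8.40 and 9.13 FPKM with BSA, 1.91, 3.40 and 2.86 FPKM with PA and 3.67, 4.72 and 4.30 FPKM with PA + C3G. It fell by 1.65 on the log2 scale with PA (SE 0.18, adjusted p = 5.38e-05 from edgeR), and its 3 groups did not overlap. Pi15, another secreted member, fell by 2.12 (SE 0.42, adjusted p = 0.00216 from edgeR). In PA + C3G against PA, 2 of 5 were higher and 0 lower, with a median of 0.33, beside 11.1% higher and 10.2% lower over all tested genes. They were Crispld1 (log2 fold change 0.67, SE 0.18, adjusted p = 0.0278 from edgeR), whose call was lost with only the compared groups and without PA replicate 3 or PA + C3G replicate 2 or 3, and Glipr2 (0.33, SE 0.10, adjusted p = 0.0467), whose call was lost in 12 of 19 alternatives, among them without any single library. Pi15 had a log2 fold change of 1.27 (adjusted p = 0.0567 from edgeR) and passed with DESeq2, with the replicate block or without PA replicate 2.

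The 3 nearest genes on each side of each gene gave 18 neighbours, of which 9 passed the filter. In PA against BSA 2 of 9 were lower and 0 higher, beside 25.2% lower and 25.8% higher over all tested genes. In PA + C3G against PA 1 was higher and 1 lower, beside 11.1% and 10.2%. With so few neighbours, these shares lie near those over all genes, except for the 0 higher in PA against BSA, which lies below its 25.8%. Spock3, which encodes the extracellular proteoglycan testican-3, lies 957.908 kb from Anxa10 on the opposite strand. It was 37.6, 34.2 and 36.8 FPKM with BSA, 8.90, 8.69 and 7.73 FPKM with PA and 14.1, 13.8 and 14.7 FPKM with PA + C3G, in 3 groups that did not overlap. Spock3 fell by 2.07 on the log2 scale with PA (SE 0.06, adjusted p = 2.29e-08 from edgeR) and rose by 0.78 with PA + C3G over PA (SE 0.06, adjusted p = 0.000108 from edgeR), beside −1.67 and 0.76 for Anxa10, and both calls held in 19 of 19 alternatives. No gene of the table lies between Spock3 and Anxa10, since Spock3 is the nearest gene on that side apart from a small nucleolar RNA listed within it.

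**Figure D5:**
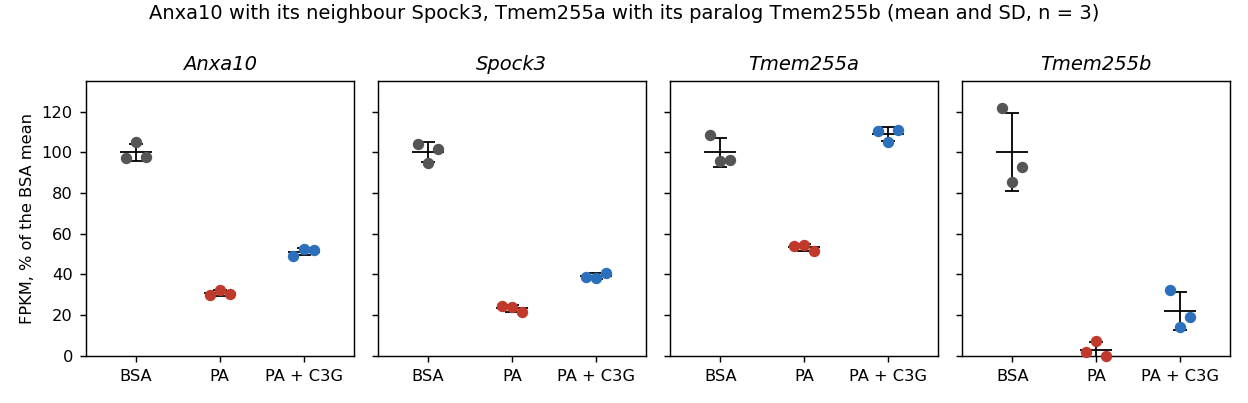
FPKM as a percentage of the mean of the BSA group (vertical axis) for Anxa10, its neighbour Spock3, Tmem255a and its paralog Tmem255b; each point is 1 library and the bars give mean and SD (n = 3). Anxa10 and Spock3 have PA + C3G libraries between PA and BSA, Tmem255a has them overlapping BSA and Tmem255b has them below it.

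Myc, the proto-oncogene transcription factor, lies 287.791 kb from A1bg on the opposite strand and had another pattern. It was 37.4, 43.0 and 38.8 FPKM with BSA, 44.0, 41.5 and 44.9 FPKM with PA and 29.2, 25.5 and 26.2 FPKM with PA + C3G. It fell by 0.65 on the log2 scale in PA + C3G against PA (SE 0.07, adjusted p = 0.000329 from edgeR), the opposite direction to A1bg, while PA against BSA gave 0.16 (adjusted p = 0.0788 from edgeR), called higher with libraries rescaled to the same FPKM sum or without BSA replicate 2 (lowest adjusted p = 0.0277). LOC362921, 1080.167 kb from A1bg on its other side, fell by 1.73 with PA (SE 0.37, adjusted p = 0.00326 from edgeR) from a low level of at most 2.63 FPKM. At the Tmem255a locus, LOC100910807 lies within the span of Tmem255a on the opposite strand, at 3.53 to 4.55 FPKM in all libraries, and Zbtb33 lies 4.775 kb away at 3.28 to 4.24 FPKM. Neither passed the test in either contrast, and since both are Kaiso-type zinc finger genes with closely similar levels, the division of reads between them is uncertain. The strand setting of the counting is not given in the sources used here, so reads of overlapping genes could be split between them. LOC100910807 was 3.82 to 4.44 FPKM with PA, beside 31.2 to 33.0 FPKM for Tmem255a. Ndufa1, a subunit of respiratory complex I 48.159 kb from Tmem255a, was listed at 0 in PA replicate 1 and at 100.9 and 136 FPKM in the other PA libraries, so a 0 in this table can be a failed estimate, which also bears on the 0 of Tmem255b in PA replicate 3.

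Markers of the tissues in which A1bg and Anxa10 are best known were examined as a check of the labelled cell line. Of 17 genes for hepatocyte plasma proteins, 13 were listed and 4 had a mean of at least 1 FPKM, led by Ambp at 224 FPKM, while Alb and Ttr were under 0.1 FPKM in every library. The sum of the list, to which Ambp contributed most, was 208 to 233 FPKM with BSA, 241 to 319 FPKM with PA and 206 to 250 FPKM with PA + C3G. A1bg did not share this order, in which PA and PA + C3G overlapped. By edgeR's test 3 of the 4 were higher in PA against BSA and 0 lower, beside 25.8% and 25.2% of all tested genes. In PA + C3G against PA, Fgg was higher (log2 fold change 0.99, adjusted p = 0.0244), Tf was lower (−0.21, adjusted p = 0.0437) and 2 were not called, beside 11.1% higher and 10.2% lower. Of 12 gastric epithelium markers, 5 were listed and 0 had a mean of at least 1 FPKM, with sums of at most 0.363 FPKM in any library, beside 483 to 1702 FPKM for Anxa10. Of the acinar, endothelial and immune cell lists, 0 genes had a mean of at least 1 FPKM. Krt7, of the duct cell list, had a mean of 108 FPKM, and the duct cell sum was 83.7 to 122 FPKM with BSA, 91.2 to 128 FPKM with PA and 105 to 152 FPKM with PA + C3G. Sox9, the other duct cell marker that passed the filter, was higher in PA against BSA (log2 fold change 0.94, adjusted p = 0.000209 from edgeR) and lower in PA + C3G against PA (−0.47, adjusted p = 0.0281). Pdgfra was the 1 fibroblast marker above 1 FPKM, at 2.77 FPKM, and was higher in PA against BSA (log2 fold change 0.48, adjusted p = 0.00418 from edgeR). Gcg, the glucagon gene, was the 1 marker of other islet cells above 1 FPKM, at 12.5 FPKM. Gcg was lower in PA against BSA (log2 fold change −2.50, adjusted p = 0.0149 from edgeR). In PA + C3G against PA it was not called (1.93, adjusted p = 0.0814 from edgeR). The sum of that last list was 9.55 to 31.9 FPKM with BSA, 2.68 to 7.01 FPKM with PA and 5.37 to 23.1 FPKM with PA + C3G, with PA lowest and overlapping PA + C3G, and its part in their levels was not tested.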

How the data were processed

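Total RNA of INS-1E cells was sequenced as poly(A)-selected paired-end libraries. Per the labels and the submitters' processing notes, the authors used cutadapt 1.9, HISAT2 2.0.4, StringTie 1.3.4d, DESeq2 and edgeR, and the genome build is not given in the sources used here. The authors deposited 1 table with an estimated count and an FPKM value for each of 20645 genes and 9 libraries. The estimated counts were already whole numbers, and low ones piled up at multiples of 4 (genes at 4 counts were 2.44 times as many as the mean of those at 3 and 5), so counts divided by 4 were 1 alternative. FPKM was used as deposited for levels.

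Genes with a mean of at least 1 FPKM over the 9 libraries were fitted together with edgeR 4.0.16 (TMM scaling, quasi-likelihood test, R 4.3.3) in 1 model of the 3 groups, and p-values were adjusted by the Benjamini-Hochberg method over 12958 genes at a threshold of 0.05. The test was checked on simulated data. Alternatives were median-ratio and FPKM-sum scaling, no filter, a mean of at least 5 FPKM, DESeq2 1.42.0, limma 3.58.1 on log2(FPKM + 1) and log2(FPKM + 0.1), a replicate block, only the compared groups, and leaving out each library.

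The members and the gene lists were chosen with earlier results of these data known. Named genes were the members, up to 5 genes of each family list by mean FPKM, and the neighbours, with the 5 genes of highest Pearson r for each member, of which 1 is not reported here. The remaining annexin that passed the filter, Anxa6, was named after its value was seen. Promoter windows came from RefSeq (GRCr8), and coordinates of that build were not mixed with those of the table.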

Additional observations from a re-analysis of the deposited data

How the results depend on the processing

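All 225 recomputed log2 fold changes of the 3 members kept their direction. For PA + C3G against PA that direction was the reason for choosing the genes, and the other separate contrasts share libraries with the choice. The palmitate contrast passed the threshold in 54 of 54. Its adjusted p-values were at most 8.83e-07 for A1bg, 0.000686 for Tmem255a and 4.85e-07 for Anxa10 over edgeR, DESeq2 and limma. Leaving out 1 library gave −1.57 to −1.48 for A1bg, −0.39 to −0.30 for Tmem255a and −1.32 to −1.26 for Anxa10 in that contrast. Without a PA or PA + C3G library the design is no longer balanced. In those fits the contrast is not orthogonal to the difference that chose the genes. With FPKM-sum scaling, PA + C3G against PA became 1.09 for A1bg, 0.98 for Tmem255a and 0.68 for Anxa10. The median of all tested genes in that contrast and scaling was −0.09. With limma at a pseudocount of 1 it was 1.09 for A1bg, and PA + C3G against BSA was −0.97 for Anxa10 at pseudocounts of 1 and 0.1. The cause of the shifts with FPKM-sum scaling and with limma was not tested.

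The family and neighbour genes that passed the filter were 6 annexins, 4 S100 genes, 1 Tmem255 paralog, 5 CRISP relatives and 9 neighbours. In PA against BSA 7 of them were lower and 4 higher, where 25.2% and 25.8% of all tested genes were. In PA + C3G against PA 5 were higher and 1 lower, beside 11.1% and 10.2% of all tested genes. The 7 lower in PA against BSA became 4 at a mean of at least 5 FPKM, where fewer genes are tested. The 5 higher in PA + C3G against PA became 2 with only the compared groups, and 1 to 4 when single libraries were left out, with 1 without PA + C3G replicate 3, 2 without PA + C3G replicates 1 or 2 or PA replicate 1, and 3 without BSA replicate 3 or PA replicate 3. The 1 lower became 2 with FPKM-sum scaling, and 1 to 2 when single libraries were left out, with 2 without PA replicate 2. Anxa7 was called lower in PA + C3G against PA with FPKM-sum scaling.

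The labels do not state whether replicate numbers mark a pairing, and the values do not settle it. Deviations of libraries with 1 number correlated at −0.05 to 0.10, and 5 of 9 libraries correlated best with their own number. The replicate block changed the SE in the palmitate contrast from 0.040 to 0.021 for Anxa10. For Tmem255a the SE went from 0.047 to 0.042 and for A1bg from 0.053 to 0.051. With the replicate block, 6843 genes were called in PA against BSA and 3118 in PA + C3G against PA, beside 6614 and 2752 without it, the family and neighbour genes higher in PA + C3G against PA numbered 7, with Anxa4 among them, and A1bg, Tmem255a and Anxa10 had log2 fold changes of −1.52, −0.35 and −1.29 in the palmitate contrast.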
